A study of Caenorhabditis elegans with 2 samples.

Results

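The regions described here are 2633 peaks of DAO-5 chromatin immunoprecipitation and sequencing (ChIP-seq) that lay at promoters of protein-coding genes pointing in 1 direction. They were chosen from the 16687 peaks that the authors called on the pooled reads. The authors label that list as peaks and background, so a peak on it need not be a site of binding. A peak was kept if it lay on chromosome I, II, IV or V of Caenorhabditis elegans, was more than 200 bp from any tRNA, snoRNA, snRNA, rRNA or miRNA gene, and had its summit between 1000 bp upstream and 200 bp downstream of protein-coding gene starts on a single strand. Peak height played no part in the choice, and the peaks kept can overlap one another. Chromosome I held 673 of the members, II held 672, IV held 609 and V held 679. The animals were hermaphrodites of strain OP252 at the L4 or young adult stage, and whole organisms were used, so tissues cannot be told apart. The strain is a single stable transgenic line with a C-terminal GFP and FLAG tag on DAO-5, and an antibody to GFP was used. There was 1 group of 2 biological replicates and no comparison group. Sequencing depth is unknown. Shares below carry exact 95% binomial intervals, which cover counting error only, and no test between classes of peaks was made, because peaks of the same libraries are not replicates.

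DAO-5 belongs to the family of Nopp140, a phosphoprotein of the nucleolus and of Cajal bodies known for its work with small nucleolar RNA particles and RNA polymerase I. A promoter is the stretch around and upstream of a gene's start where RNA polymerase II and its factors gather. Where neighbouring genes point away from each other, a peak between them cannot be given to either gene with certainty. The rule drops such a peak only if its summit lies in the windows of both strands. The upstream neighbour was on the same strand for 1530 of the 2309 genes of members (66.26%). For genes of thresholded members it was 40 of 64 (62.5%). Members can therefore still lie between genes that point away from each other. Many worm transcripts lose their first bases when a spliced leader is joined to them, and an annotated gene start can therefore lie downstream of the place where transcription begins.

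The sequences at the summits of strong members are shown first, since their composition recurs in the results below. Each runs 50 bp to either side of the summit on the strand of the gene, from the RefSeq sequence of assembly WBcel235, which is the ce11 build. Capitals mark matches on either strand to 7 of the 8 motifs searched, AAAAAA being left in lower case. The first 5 are GC-rich sites with GAGAGA or GGGCGG at chrII:6348530-6348630, chrIV:13887655-13887755, chrII:8028479-8028579, chrIV:6756573-6756673 and chrIV:3636735-3636835.
lgg-1: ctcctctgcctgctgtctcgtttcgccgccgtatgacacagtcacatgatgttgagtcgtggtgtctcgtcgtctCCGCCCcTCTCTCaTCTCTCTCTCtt
lin-66: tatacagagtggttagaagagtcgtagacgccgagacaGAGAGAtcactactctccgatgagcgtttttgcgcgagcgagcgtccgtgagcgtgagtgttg
swsn-7: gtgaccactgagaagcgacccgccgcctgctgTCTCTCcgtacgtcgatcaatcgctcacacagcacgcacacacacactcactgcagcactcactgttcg
usp-4: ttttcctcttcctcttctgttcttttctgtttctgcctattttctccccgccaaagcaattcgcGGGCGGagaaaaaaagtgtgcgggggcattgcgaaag
madf-9: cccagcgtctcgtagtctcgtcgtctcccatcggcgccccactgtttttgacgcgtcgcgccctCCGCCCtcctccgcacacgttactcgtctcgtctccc

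The next 3 come from members that overlap a gene annotated as an unclassified non-coding RNA, at chrII:14804706-14804806, chrII:13834514-13834614 and chrII:14497018-14497118. The third holds GTTCGA, the core of the internal promoter box of tRNA genes.
W01D2.3: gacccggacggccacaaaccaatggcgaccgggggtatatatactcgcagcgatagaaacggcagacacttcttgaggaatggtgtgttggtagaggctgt
F08G2.5: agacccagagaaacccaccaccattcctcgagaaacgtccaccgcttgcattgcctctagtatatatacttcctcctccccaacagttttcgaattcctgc
dhs-8: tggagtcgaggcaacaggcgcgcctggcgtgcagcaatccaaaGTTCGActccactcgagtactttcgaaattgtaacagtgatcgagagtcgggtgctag

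The last pair shows strong members without GC-rich sequence, at chrII:10563475-10563575 and chrII:10542102-10542202.
cdc-48.1: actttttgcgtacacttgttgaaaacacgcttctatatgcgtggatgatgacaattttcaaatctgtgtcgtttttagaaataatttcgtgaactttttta
pro-1: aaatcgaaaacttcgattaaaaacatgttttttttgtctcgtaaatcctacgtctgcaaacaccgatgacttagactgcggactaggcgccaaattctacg

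Most members were weak, and a small share had much higher signals. Signal, the authors' value for the height of a peak, ran from 16.43 to 105.7 with a median of 21.45 and quartiles of 18.4 and 26.62, beside a median of 21.33 over all pooled peaks. The authors' thresholded list, made with the irreproducible discovery rate (IDR), holds the 549 strongest pooled peaks, which is 3.29% of them. It took in 64 of the 2633 members (2.43%, interval 1.88 to 3.09%), a share below that of the pooled list as a whole. Peaks in windows of both strands reached 18 of 476 (3.78%, interval 2.26 to 5.91%), and peaks outside promoter windows on the same chromosomes 73 of 7485 (0.975%, interval 0.765 to 1.22%). The 64 thresholded members had signals from 51.99 to 105.7 with a median of 60.67, and the strongest member outside that list had 51.38. No gap in signal set the 64 apart. Chromosome V held 9 of them, against 20 on I, 19 on II and 16 on IV.

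Of all thresholded peaks on these chromosomes, 64 of 294 were members (21.8%, interval 17.2 to 26.9%), where 20.1% of all bases would meet the rule. Of all pooled peaks there it was 23.7% (interval 22.9 to 24.5%). Peaks near small RNA genes, none of which can be a member, made up 139 of the 294. Away from small RNA genes, 24.9% of the 10594 pooled peaks on these chromosomes were members (interval 24.0 to 25.7%), where 20.3% of those bases would meet it. Among the thresholded peaks away from small RNA genes the share was 64 of 155, or 41.3% (interval 33.4 to 49.5%). Windows of both strands covered 2.39% of these bases and held 4.49% of pooled and 11.6% of thresholded peaks.

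**Figure D1:**
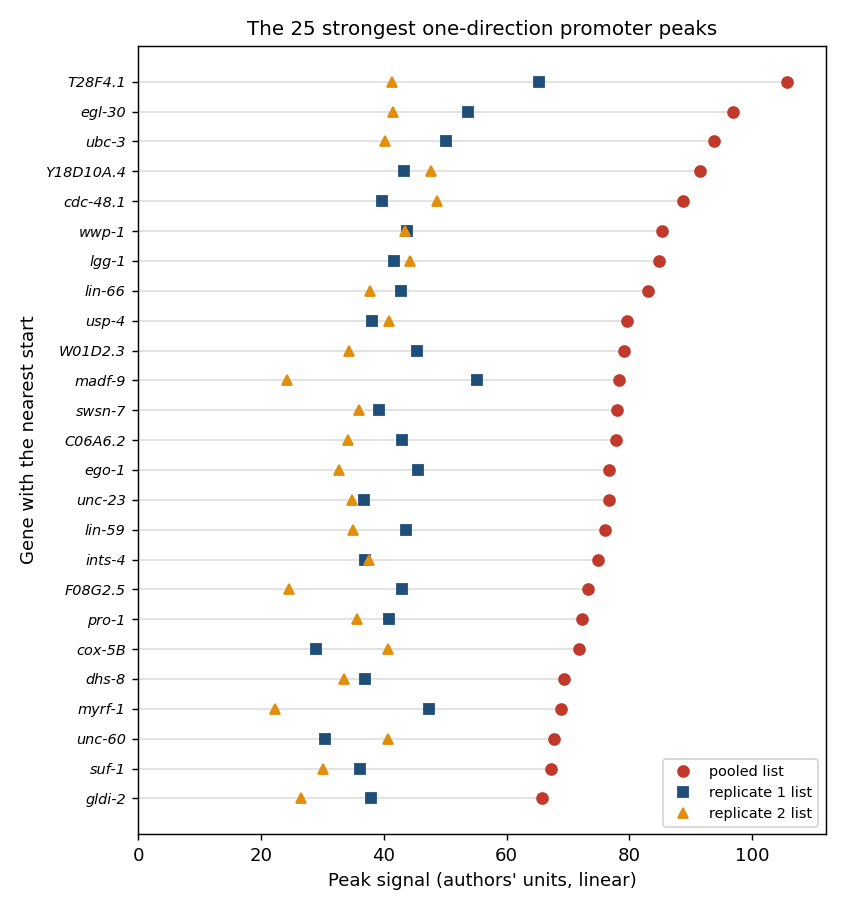
Signal of the 25 strongest members (horizontal axis, the authors' units) by the gene with the nearest start, in the pooled list (circles) and of the overlapping peak in the replicate 1 (squares) and replicate 2 (triangles) lists. Pooled signal falls from 105.7 to 65.73, the replicate 1 values lie between 28.99 and 65.28, and the replicate 2 values between 22.23 and 48.61.

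The genes at the strongest members are given here one by one, grouped only for reading and after the values were seen. The strongest member lay at position -970 from the start of T28F4.1, which encodes a protein with a SERTA domain (negative positions are upstream). Its pooled signal was 105.7, beside 65.28 in replicate 1 and 41.27 in replicate 2. Second was egl-30, the Gq alpha subunit of heterotrimeric G proteins, with a pooled signal of 96.95 and replicate signals of 53.7 and 41.46 at position -52. Both members had their higher replicate signal in replicate 1.

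Several of them act in ubiquitin pathways or autophagy. Of the 44 members at genes whose annotated product names ubiquitin or its conjugating domain 4 were thresholded, beside 2.43% of all members. On the symbol-matched proteasome and ubiquitin list 1 of 66 genes, ubc-3, had a thresholded member, beside 0.466% of all genes. The genes wwp-1, usp-4 and eel-1, named below, are not on that list. At ubc-3, a ubiquitin-conjugating enzyme, the pooled signal was 93.89, with 50.16 in replicate 1 and 40.11 in replicate 2. At cdc-48.1, the ATPase that pulls ubiquitin-tagged proteins out of complexes and membranes, it was 88.81, with 39.73 and 48.61. The ubiquitin ligase gene wwp-1 had 85.36, with 43.74 and 43.49. These 3 peaks ranked within the strongest 549 in each replicate list. The deubiquitinating enzyme gene usp-4 had 79.7, with 38.06 in replicate 1 and 40.84 in replicate 2. The genes of both worm Atg8 proteins, which coat autophagosomes, had a thresholded member: lgg-1 with 84.87 and replicate signals of 41.64 and 44.28, and lgg-2 with 52.39 and replicate signals of 18.46 and 31.88. The lgg-1 summit lay at -861 and the lgg-2 summit at -249. For eel-1, a ubiquitin ligase with a pooled signal of 52.33, 69.3% of the 30-base words in the peak occur elsewhere in the genome, the most among thresholded members, so its reads may be shared with other places.

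Other genes act in chromatin or transcription, and on the chromatin list 1 of 72 genes had a thresholded member, beside 0.466% of all genes. That gene was swsn-7, and the other genes named in this paragraph are not on that list, which was matched by symbol. The peak at swsn-7, an ARID subunit of the SWI/SNF remodelling complex, had a pooled signal of 78.08 and replicate signals of 39.26 and 35.95. For lin-59, a histone methyltransferase, the values were 76.09, 43.69 and 34.91 in the same order, and for the membrane-bound transcription factor myrf-1 they were 68.86, 47.41 and 22.23. The MADF-domain gene madf-9 had a pooled signal of 78.37, with 55.15 in replicate 1 and 24.24 in replicate 2. A second MADF-domain gene, C06A6.2, had 77.89, 42.89 and 34.23. The madf-9 and myrf-1 signals were more than 2 times higher in replicate 1 than in replicate 2, and those of the other 3 genes lay closer together.

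RNA genes were also among the 25. The summit at ints-4, a subunit of the Integrator complex that cuts the ends of small nuclear RNAs, lay at position 21 in an untranslated exon part, with a pooled signal of 74.96 and replicate signals of 36.94 and 37.65. The pre-rRNA processing gene pro-1 had 72.34, 40.84 and 35.67, and suf-1, a pre-mRNA cleavage factor gene, had 67.22, 36.12 and 30.07. The gene of the germline RNA-directed RNA polymerase ego-1 had 76.74, 45.54 and 32.76. These 4 values were similar in the replicates beside the spread over all thresholded members described next. The rest of the 25 were Y18D10A.4, lin-66, W01D2.3, unc-23, F08G2.5, cox-5B, dhs-8, unc-60 and gldi-2. Their pooled signals ranged from 65.73 at gldi-2 to 91.59 at Y18D10A.4, whose replicate signals were 43.27 and 47.64.

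Replicates found the same places for strong members and differed in how they ranked them. Of all members, 1408 (53.5%, interval 51.6 to 55.4%) shared at least 1 bp with a peak of both replicate lists, where the share over all pooled peaks was 53.0%. Replicate 1 overlapped 2031, replicate 2 overlapped 1939, and 71 were in neither. Because 2 members can overlap the same replicate peak, the 2031 correspond to 1827 replicate 1 peaks and the 1939 to 1751 replicate 2 peaks. The share in both lists fell with pooled rank. It was 97.6% for members ranked 550 to 2000, 86.5% for 2001 to 4000, 59.9% for 4001 to 8000 and 32.1% below that, each within 4 percentage points of all pooled peaks of those ranks. All 64 thresholded members were in both lists, as were all 549 thresholded peaks. That list was made with IDR, so this overlap may follow in part from its making.

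A stricter reading left fewer. Replicate peaks ranked within the strongest 549 of both lists for 41 members (1.56%, interval 1.12 to 2.11%), beside 2.27% of all pooled peaks. Of the 64 thresholded members, 22 did so (34.4%, interval 22.95 to 47.3%), against 289 of all 549 thresholded peaks (52.6%, interval 48.4 to 56.9%). Among the 25 strongest members it was 21. Outside the thresholded list 19 members met this limit. Some of these, as at lin-59 and pro-1, overlapped the same replicate peaks as a stronger member beside them. The 41 members thus stand for fewer replicate peaks. The best ranks in replicate 1 were 37 at T28F4.1, 60 at madf-9, 65 at egl-30, 88 at ubc-3 and 96 at rplp-1. In replicate 2 they were 88 at cdc-48.1, 95 at Y18D10A.4, 115 at lgg-1, 123 at wwp-1 and 142 at sec-61.G. No gene was in both of these groups of 5, but some missed the other group by a few ranks. In replicate 2 the first 5 ranked 147, 785, 145, 170 and 2129, in the order given. In replicate 1 the second 5 ranked 203, 148, 176, 141 and 3669. Across the 1408 members in both lists the Spearman correlation of the replicate signals was 0.361, and across the 64 thresholded ones it was -0.0926. These points share their libraries and were selected on pooled signal, so the values only describe these lists.

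**Figure D2:**
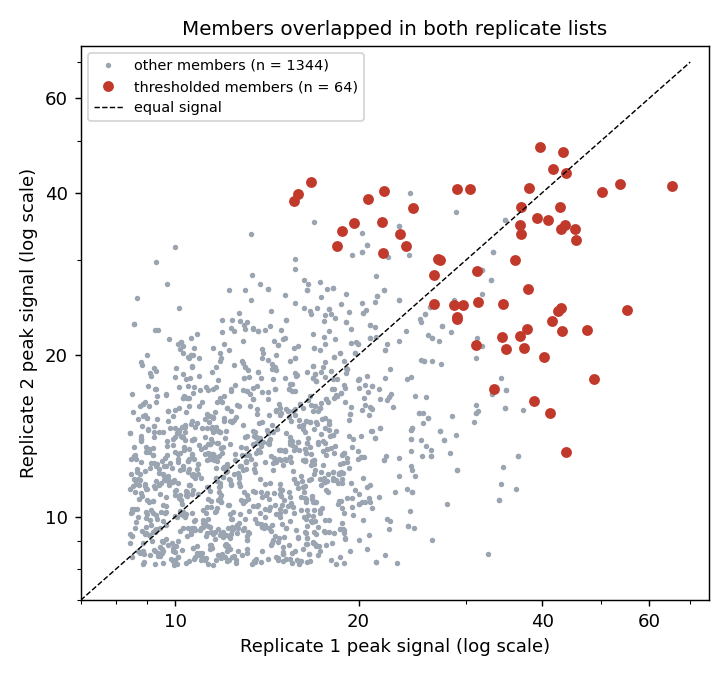
Signal of the overlapping peak in replicate 2 against replicate 1 (both log axes, the authors' units) for the 1408 members overlapped in both lists, with the 64 thresholded members as large points and equal signal as a dashed line. The thresholded members form an arc from high replicate 2 and low replicate 1 signal to the reverse, between 15.66 and 65.28 in replicate 1 and 13.19 and 48.61 in replicate 2.

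The genes at the ends of that arc were these. At cyc-2.1, a cytochrome c gene, the signal was 43.81 in replicate 1 and 13.19 in replicate 2, a ratio of 3.32. The ribosomal protein gene rplp-1 had 48.67 and 18.01, and rsl-24D1, a relative of a ribosome assembly factor, had 41.18 and 15.58. H37A05.4 had 38.86 and 16.42, and madf-9, given above, completes the 5 with the highest ratio. At the other end, sec-61.G, a subunit of the channel through which proteins enter the endoplasmic reticulum, had 16.7 in replicate 1 and 41.88 in replicate 2, a ratio of 0.399. The 5′ to 3′ exonuclease gene xrn-2 had 15.66 and 38.62, gfrl-1 had 15.9 and 39.74, the splicing gene plrg-1 had 20.76 and 39.03, and D2096.7 had 22.05 and 40.33. Pooled signals of these 9 lay between 53.2 and 63.41. In all, the replicate 1 signal was more than 2 times the replicate 2 signal at 7 thresholded members and less than 0.5 times at 3.

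Summits of all members were most frequent from 400 bp before to 200 bp after the gene start, and those of thresholded members in the 400 bp before it. The median position was -290 bp (quartiles -608 and -42) for all members and -276 bp (quartiles -516 and -115) for the thresholded 64. Of all members, 40.3% (interval 38.4 to 42.2%) lay between -400 and the start, and of thresholded members 57.8% (interval 44.8 to 70.1%). Of the bases that meet the rule 32.8% lie there. In the first 200 bp of the gene, which hold 17.3% of the bases, there were 19.5% of all members and 6 of 64 thresholded ones (9.38%, interval 3.52 to 19.3%). All members were 430 bp long with the summit listed at the middle, so a summit here is in effect the centre of its peak. Replicate centres lay a median of 4 bp from the pooled centre in replicate 1 and 21.5 bp in replicate 2 for thresholded members, and 42 bp and 45 bp for all members.

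**Figure D3:**
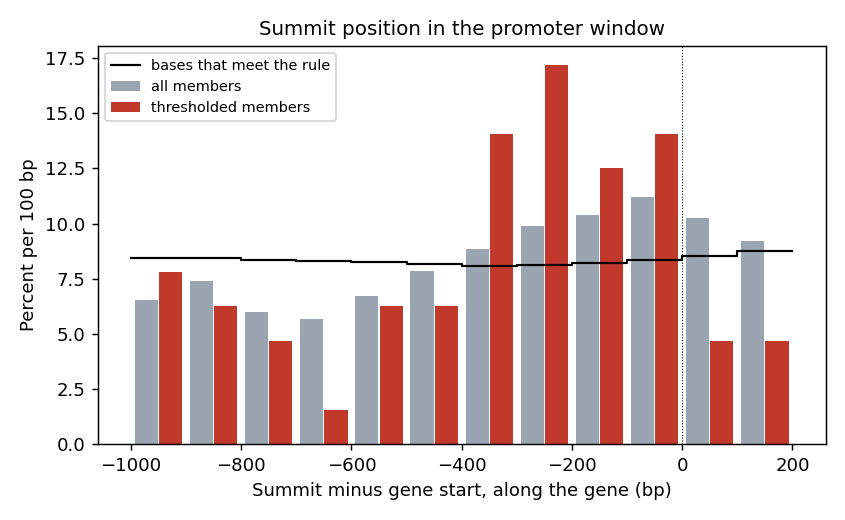
Percent of all members (grey bars), of the 64 thresholded members (red bars) and of bases that meet the rule (black line) in steps of 100 bp of position from the gene start, which is at 0 with upstream to the left. Bases are spread evenly at 8.08 to 8.75% a step, all members reach 11.2% in the last 100 bp before the start, and thresholded members reach 17.2% between -300 and -200.

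Strong members lay between genes more often than members as a whole. The summit lay between protein-coding genes for 1393 of 2633 members (52.9%, interval 51.0 to 54.8%) and for 52 of the 64 thresholded ones (81.2%, interval 69.5 to 89.9%). Coding exons held 649 summits (24.6%) but 4 thresholded ones (6.25%, interval 1.73 to 15.2%). Introns held 281 (10.7%) and 1 of the 64, and untranslated exon parts 310 (11.8%) and 7 (10.9%). The summit lay inside a protein-coding gene other than the assigned one for 760 members (28.9%, interval 27.1 to 30.6%) and 7 of the 64. It lay inside the assigned gene for 508 (19.3%) and 6 of the 64. The 4 thresholded summits in coding exons were at Y18D10A.4, rplp-1, rps-16 and his-59. The first 3 lay in the gene's own first 200 bp, at 102, 134 and 100. The summit assigned to his-59, a histone H3 gene, lay in the neighbouring histone gene his-60. Histone genes have near-identical copies, and 20.7% of the 30-base words in that peak occur elsewhere in the genome. Part of its reads may therefore be shared with other places.

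Unclassified non-coding RNA genes lay under 14 of the 64 thresholded members. Such genes, which the annotation lists without a class and which the rule does not exclude, overlapped 156 of all members (5.92%, interval 5.05 to 6.90%) and 21.9% of the thresholded ones (interval 12.5 to 33.97%). The 25 strongest members included 9 of the 14. The share was similar for thresholded peaks outside promoter windows, at 17 of 73 (23.3%, interval 14.2 to 34.6%), and for those in windows of both strands, at 5 of 18 (27.8%, interval 9.69 to 53.5%).

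They were most frequent far upstream. Between -1000 and -500, 9 of 17 thresholded members overlapped an unclassified non-coding RNA gene (52.9%, interval 27.8 to 77.02%), against 5 of 47 nearer the start or inside the gene (10.6%, interval 3.55 to 23.1%). All 5 thresholded members beyond -900 did so. They were at T28F4.1, C06A6.2, F08G2.5, dhs-8 and gfrl-1. For members outside the thresholded list the share was 47 of 835 (5.63%) between -1000 and -500 and 95 of 1734 (5.48%) nearer. The non-coding genes were 75 to 540 bases long, taking for each member the one with the start nearest to the summit. That start lay a median of 47.5 bp from the summit, and within 100 bp at 9 of 14. It was on the strand of the coding gene in 7 of 14. At hsp-1, the gene of a constitutive Hsp70 chaperone, the summit lay at -552 from the coding gene and at -6 from the start of F26D10.23. At F08G2.5 it lay at -933 from the coding gene and at -41 from F08G2.13. Which of the genes a peak belongs to cannot be read from these lists.

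Bases at the summit were richer in G and C the stronger the member. In the 101 bases centred on the summit the GC content was 39.99% ± 9.59 (SD over 2633 members), against 36.1% ± 6.24 in windows 500 bp to either side. The thresholded 64 had 48.1% ± 9.84 at the summit and 38.5% ± 6.26 beside it, and 45 of the 64 were higher at the summit. Windows of the same length at position -290 of all 14599 protein-coding genes of these chromosomes had 34.3% ± 8.43. By pooled rank the mean fell from 48.1% for the 64 to 43.7% for ranks 550 to 2000, 41.0% to rank 4000, 40.02% to rank 8000 and 38.7% below. Within the 64, GC content ran from 24.8% at Y71F9AL.8 to 70.3% at myrf-1, and its Spearman correlation with signal was 0.431. Over all members that correlation was 0.169. Members had a lower GC content than all nuclear pooled peaks, whose mean was 41.3% ± 9.80. How base composition affects the recovery of fragments in these libraries was not tested.

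**Figure D4:**
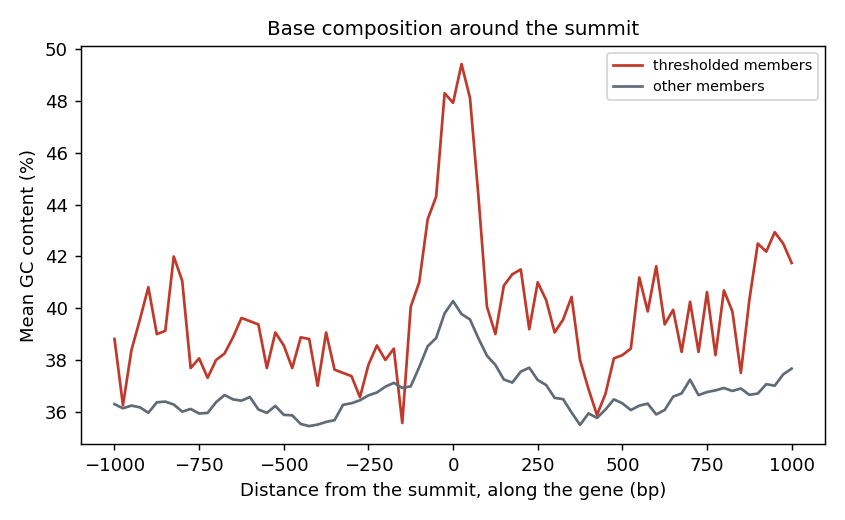
Mean GC content in 25-base steps (vertical axis, percent) against distance from the summit along the gene (horizontal axis, bp) for the 64 thresholded members and the other 2569. The thresholded members peak at 49.4% within 25 bp of the summit over surroundings near 38%, and the others reach 40.3% at the summit.

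GAGAGA and GGGCGG differed most, as a ratio, between summits and the windows beside them. GAGAGA on either strand, the letters bound by GAGA factor in flies, occurred in 288 of 2633 summit windows (10.9%, interval 9.77 to 12.2%) and in 5.34% of the windows beside them. It occurred in 12 of 64 thresholded windows (18.8%, interval 10.1 to 30.5%) and in 5.62% of windows at all gene starts. All nuclear pooled peaks had it in 10.3%. GGGCGG, the GC box letters of mammalian Sp1 sites, occurred in 4.63% of member windows, 1.78% beside them, 1.98% at all gene starts and 10 of 64 thresholded windows (15.6%, interval 7.76 to 26.9%). The lgg-1 sequence printed above holds both. A match is no evidence of a bound factor, and GC-rich windows offer such letters more often.

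The other 6 motifs follow. TATAAA, the TATA box letters, occurred in 11.2% of member windows, 10.0% beside them and 12.8% at all gene starts, and in 1 of 64 thresholded windows, at kin-14. TTTCAG, the end of worm introns and of trans-splice sites, occurred in 17.2% of member windows, 21.7% beside them and 3 of 64 thresholded windows. AAAAAA occurred in 31.6% of member windows, 38.6% beside them, 45.5% at all gene starts and 12 of 64 thresholded windows (18.8%). TGATAA, the letters of worm intestinal GATA sites, was at 9.42% of members and 10.3% of gene starts, and CACGTG, the E-box letters, at 2.24% and 1.55%. GTTCGA was at 4.22% of members, 3.08% of gene starts and 4 of 64 thresholded windows, namely dhs-8, rplp-1, rpi-2 and xrn-2. The summit windows of W01D2.3 and F08G2.5 both hold the run GTATATATACT, the longest that they share, which was looked for only after the sequences had been seen. It was present in 3 of 2633 member windows, 3 of 16670 nuclear pooled windows and 1 of 14599 windows at gene starts.

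Genes with a one-direction promoter peak numbered 2355 of the 14599 protein-coding genes on these chromosomes, or 16.1%, and 68 of them (0.466%) had a thresholded one. A peak can lie in the windows of several genes that point the same way, which was so for 63 members. Single peaks were the rule, with 2032 genes holding 1 member, 302 holding 2 and 21 holding 3. Members at a gene can overlap, as those at -156 and -368 of pro-1 do, so 2 or 3 members need not be separate sites. Genes with 3 members included egl-30 and its overlapping neighbour C53H9.4, kin-14, zyg-11 and wdr-23, whose strongest members had signals of 96.95, 96.95, 61.52, 60.59 and 50.14. In the central 50% of the 4 chromosomes lay 60.5% of members (interval 58.6 to 62.3%), beside 55.0% of gene starts and 55.9% of all pooled peaks there.

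**Figure D5:**
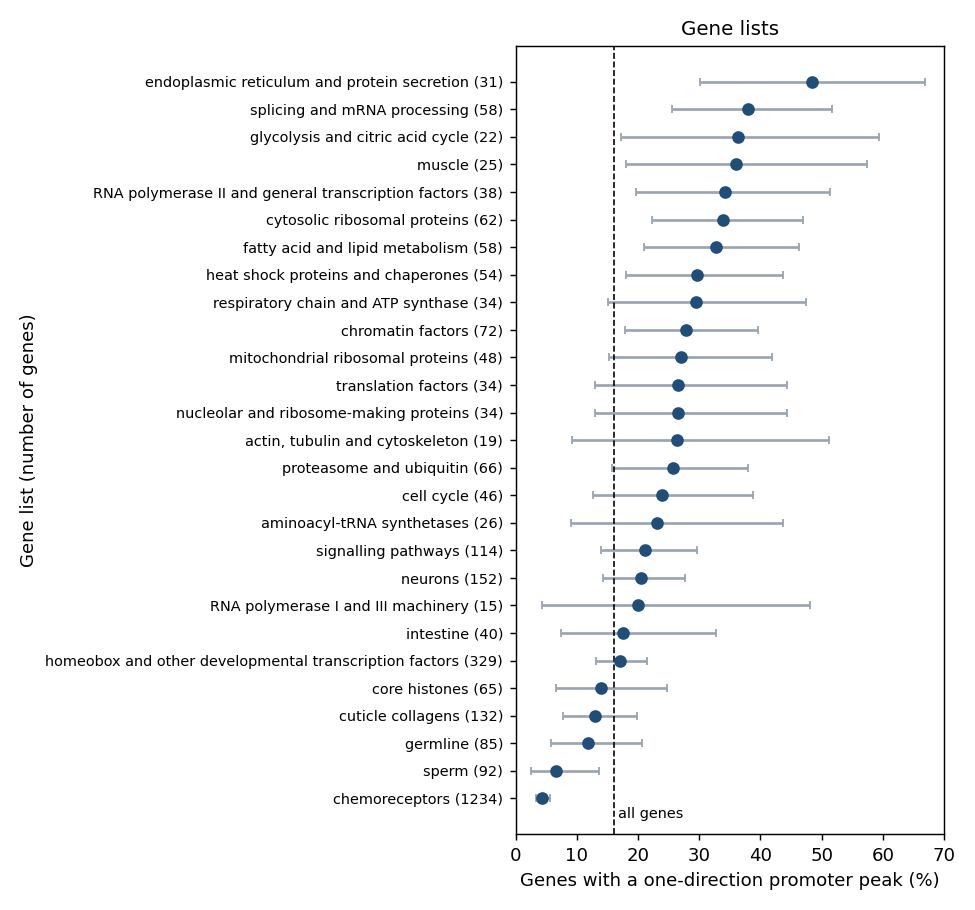
Percent of the genes of each list (horizontal axis) with a one-direction promoter peak, with exact 95% binomial intervals as bars, the number of genes in brackets and the share of all genes, 16.1%, as a dashed line, for lists of more than 1 gene. The endoplasmic reticulum list is highest at 48.4% and chemoreceptors lowest at 4.29%, and most lists of genes used in all cells lie right of the line.

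Genes that make, fold and export proteins often had a member, read against the 16.1% of all genes. Lists were matched by gene symbol and leave out some genes of the same function, so a leading gene leads its list only. The list of endoplasmic reticulum and secretion genes had 15 of 31 (48.4%, interval 30.2 to 66.9%). Beside sec-61.G, it held sec-61.A with a signal of 45.39, the calcium-binding chaperone gene crt-1 with 39.88 and the COPII coat GTPase gene sar-1 with 33.84. Cytosolic ribosomal protein genes had 21 of 62 (33.9%, interval 22.3 to 47.01%). A thresholded member was present at 3 of the 62 (4.84%, interval 1.01 to 13.5%, beside 0.466% of all genes). These were rps-24 with a pooled signal of 64.96 and replicate signals of 37.37 and 20.57, rplp-1 with 63.41, and rps-16 with 55.83, 26.6 and 28.15. The next was rps-18 with 48.08. Of the rps-24 peak, 38.9% of the 30-base words recur elsewhere in the genome.

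Further lists of protein synthesis were nearer to the background. The list of mitochondrial ribosomal protein genes had 13 of 48 (27.1%), led by mrps-21 with 49.76. It leaves out T09F3.4, annotated as a mitochondrial ribosomal protein. That gene had a thresholded member with 54.55 and replicate signals of 19.66 and 35.11. Translation factors had 9 of 34 (26.5%), led by eif-3.C with 42.14, whose member was overlapped in replicate 2 only. Aminoacyl-tRNA synthetases had 6 of 26 (23.1%), led by iars-2 with 36.23. That summit lay at -903 from iars-2 and nearer, at -512, to the start of C25A1.20. Heat shock proteins and chaperones had 16 of 54 (29.6%), led by hsp-1 with 53.25 and replicate signals of 23.89 and 31.81. The intervals of the first 3 of these lists include 16.1%.

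Lists close to the known work of the DAO-5 family come next. Nucleolar and ribosome-making genes had 9 of 34 (26.5%, interval 12.9 to 44.4%). Of these pro-1 and xrn-2 were thresholded (5.88%, interval 0.72 to 19.7%, beside 0.466% of all genes), followed by nol-53 with 36.24 and rrp-8 with 31.15. RNA polymerase I and III genes had 3 of 15 (interval 4.33 to 48.1%), namely rpoa-49 with 22.96, rpoa-1 with 19.74 and rpoa-12 with 18.14, and none of the 3 was thresholded. The rpoa-1 member was in neither replicate list. RNA polymerase II and general transcription genes had 13 of 38 (34.2%, interval 19.6 to 51.4%), led by the Mediator gene mdt-22 with 34.17.

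Nuclear and metabolic lists followed. The splicing and mRNA processing list had 22 of 58 (37.9%, interval 25.5 to 51.6%). It was led by the RNA helicase gene mog-4 with 61.16 and replicate signals of 31.25 and 28.64, and by rsp-6 with 51.22. It leaves out suf-1 and plrg-1, named above, whose thresholded members had 67.22 and 58.08. Chromatin factors had 20 of 72 (27.8%), with chd-7 at 51.31 and met-1 at 50.57 after swsn-7. Core histones had 9 of 65 (13.8%), among them his-37 with 60.73. Proteasome and ubiquitin genes had 17 of 66 (25.8%), with the SUMO-conjugating enzyme gene ubc-9 at 50.41 and the ubiquitin-activating enzyme gene uba-1 at 40.72 after ubc-3. Respiratory chain genes had 10 of 34 (29.4%), led by the cytochrome oxidase gene cox-5B with 71.82, 28.99 in replicate 1 and 40.71 in replicate 2. Glycolysis and citric acid cycle genes had 8 of 22 (36.4%, interval 17.2 to 59.3%), led by gpi-1 with 50.21, and lipid metabolism genes 19 of 58 (32.8%, interval 21.01 to 46.3%), led by fil-2 with 40.25. Cell cycle genes had 11 of 46 (23.9%). Of these cdc-48.1, zyg-11 and the DNA clamp gene pcn-1 were thresholded (6.52%, interval 1.37 to 17.9%, beside 0.466% of all genes). The gene cdc-48.1, given above with ubiquitin pathways, is on this list by its symbol.

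Tissue lists followed no single direction from the background. Muscle genes had 9 of 25 (36.0%, interval 17.97 to 57.5%), led by unc-60, an actin-depolymerizing factor gene, with a pooled signal of 67.78 and replicate signals of 30.44 and 40.62. The body wall myosin gene unc-54 had 22.89. Actin, tubulin and cytoskeleton genes had 5 of 19 (26.3%), led by tba-2 with 46.24. Intestine genes had 7 of 40 (17.5%), led by the ferritin gene ftn-2 with 37.8, neuronal genes 31 of 152 (20.4%), led by nlp-24 with 28.99, and cuticle collagens 17 of 132 (12.9%), led by col-63 with 50.69. The single vitellogenin gene on these chromosomes had none. Germline genes had 10 of 85 (11.8%), with him-17 at 41.81 and gld-1 at 32.83 after ego-1.

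Chemoreceptor and sperm genes had the lowest shares among lists of more than 1 gene. Of 1234 chemoreceptor genes 53 had a member (4.29%, interval 3.23 to 5.58%), led by srw-95 with 43.44, and 0 had a thresholded one (exact interval up to 0.298%). Sperm genes had 6 of 92 (6.52%, interval 2.43 to 13.7%), led by spe-36 with 35.48. Developmental transcription factors were near the background at 56 of 329 (17.02%), led by the nuclear hormone receptor gene nhr-49 with 48.37, and signalling genes had 24 of 114 (21.1%), led by egl-30 and kin-14. All lists together had 435 of 2967 genes (14.7%) with a member and 21 (0.708%) with a thresholded one, against 16.1% and 0.466% of all genes. The large chemoreceptor list weighs on the first of these totals.

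The members and peaks nearest to the edges of the rule were as follows. Just inside the upstream edge lay F15A4.2 at -1000 with a signal of 20.39 and syp-2 at -1000 with 24.82, and just outside it W09G3.8 at -1001 with 25.01 and fbxa-101 at -1002 with 21.26. At the downstream edge eat-3 at 200 had 32.58 and srg-45 at 199 had 24.23, and just outside srd-56 and hrpa-1 at 201 had 18.36 and 22.55. The members nearest to a small RNA gene were F53G12.9 at 220 bp with 19.7 and rplp-1 at 229 bp with 63.41, and just outside were T26C12.1 at 193 bp with 18.79 and nmr-2 at 192 bp with 19.14. The distance to small RNA genes removed 122 peaks that lay in windows of 1 strand. Their median signal was 34.82 and 37 of them were thresholded, a larger share than among the members.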

How the data were processed

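The authors deposited peak lists in builds ce10 and ce11 for each replicate, for pooled reads and for an IDR-thresholded set, and only the ce11 lists were used. Calling was thus done per replicate as well as on the pool. The replicate and pooled lists are labelled as peaks and background given as input for IDR. Each peak carries a signal value deposited by the authors and a summit offset. The peak caller, aligner, scaling, IDR threshold and treatment of reads with several matches are not given in the sources used here. Peak numbers were 23091 in replicate 1, 21273 in replicate 2, 16687 in the pooled list and 549 in the thresholded list, and signal was used only within a list. No read depth is known.

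Gene starts, small RNA genes and sequence came from the RefSeq annotation of WBcel235, whose chromosome lengths fit all pooled peaks. Each member was given to the nearest start in its window, while gene counts and lists took every gene whose window held the summit. A replicate value is the signal of the strongest replicate peak overlapping by at least 1 bp. Motifs and GC content were read within 50 bp of the summit. The members, the 28 gene lists, matched by symbol, and the motifs were chosen with earlier results of these data known, and rplp symbols were added to the ribosomal list after the files were read. Genes named are those at the 25 strongest members, up to 4 a list by signal, the 5 highest ranked in each replicate, the 5 thresholded members with the highest and lowest replicate ratios, up to 5 genes with most members and the 2 nearest each edge of the rule; further members named by place, motif or function were picked after their values were seen. The assignment, overlap and motif steps were tested on simulated peaks. Tables were handled with pandas 2.3.3 and numpy 2.4.6 in Python 3.11.15, intervals computed with scipy 1.17.1 and plots drawn with matplotlib 3.10.9.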

Additional observations from a re-analysis of the deposited data

How the results depend on the processing

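Of 50 recomputed values under 10 settings, 24 stayed within their margin, 26 moved and 0 changed sign. With a window of 500 bp upstream to 100 bp downstream there were 1736 members, 57.0% in both replicate lists, a median signal of 21.92 and a median position of -174. Starts of all annotated mRNAs put the median position at -273. Thresholded peaks alone gave 64 members, 100% in both lists as for all thresholded peaks, a median signal of 60.67 and position -276. They gave 21 listed genes, 18.8% with GAGAGA and 48.1% GC. The stronger 50% of the pooled list gave 1338 members, 74.96% in both lists, a median signal of 26.49, 239 listed genes, 12.8% with GAGAGA and 41.3% GC. An overlap of at least 50% of both peaks left 43.3% in both lists, and windows of 100 bp to each side raised GAGAGA to 17.8%. The rule applied to 1 replicate list at a time gave 3335 to 3456 members, a median signal of 11.11 to 11.63, a median position of -315.5 to -300, 538 to 583 listed genes, 8.88 to 9.12% with GAGAGA and 38.1 to 39.5% GC. The smaller signal in single lists is on those lists' own scale. The other causes were not tested. The distance to small RNA genes, at 0 or 1000 bp, left the number of members, both shares and the median signal within their margins, and was not run for the other results. No paired analysis was possible because there is 1 group. Unknown depth and scaling limit all signals, and weak members, of which 32.1% were in both lists below rank 8000, are less certain than strong ones.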
